A study of Mus musculus with 6 samples.

Results

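The 44 genes described here encode proteins that copy DNA during S phase of the cell cycle: the factors that license origins, the replicative helicase and its activators, the DNA polymerases and their clamp, the enzymes that join new strands, the enzymes that supply deoxynucleotides, and the factors that rebuild chromatin on new DNA. They were chosen by symbol from a list written with earlier results of these data known, so shares set beside all genes are descriptive. Among the 57180 rows of the gene table, 44 of 44 symbols were matched. Lung RNA was sequenced from 6 mouse samples in 2 groups of 3, all taken after exposure to cigarette smoke in a study that modelled chronic obstructive pulmonary disease. The first group (CS) had the genotype WT, and the second (FTO_OE_CS) had the genotype FTO_OE and overexpressed FTO, an enzyme that removes the methyl mark N6-methyladenosine from RNA. Smoke exposure was shared by both groups and unexposed lungs were not analysed here, so the single contrast is genotype within smoke-exposed lungs. The labels give neither the age, sex or strain of the mice, nor the promoter or cell type in which FTO was overexpressed, nor the length of exposure. Nor do they state whether the 3 libraries of a group are 3 different mice. The p-values thus rest on the spread between these samples, part of which may be technical. Libraries are called WT 1 to WT 3 and FTO-OE 1 to FTO-OE 3 by the replicate numbers in the labels.

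Most cells of an adult lung are not dividing, and transcripts of the replication machinery are most abundant in cells that cycle. Before S phase, the origin recognition complex, Cdc6 and Cdt1 load pairs of MCM2-7 rings onto DNA, a step called licensing. Kinases then recruit Cdc45 and the GINS complex to each ring, which turns it into the active helicase, and polymerases follow the opened fork. Many of these genes are transcribed at the boundary of G1 and S phase by E2F factors, whose release from the retinoblastoma protein family commits a cell to division. In a bulk sample such as whole lung, a higher level can come from more cells of a type or from more RNA per cell, and these cannot be told apart.

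The libraries held between 16731850 and 21444907 estimated counts. Fto was measured at 66.2, 69.9 and 68.6 CPM (the normalised read count, scaled to library size) in the wild-type libraries and at 666, 650.1 and 741 CPM in the FTO-overexpressing libraries, so the genotype labels held in 6 of 6 libraries. The lung identity of the samples was checked on 10 markers of alveolar type 2 cells, the surfactant-producing cells of the air sacs, and 10 of endothelium. 10 of 10 and 10 of 10 were detected and tested, and in the library where their sum was lowest the alveolar type 2 markers still added up to 24132 CPM. Of all 16989 genes tested with edgeR's quasi-likelihood test, 16 passed a Benjamini-Hochberg adjusted p of 0.05, which is 0.0942%.

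Estimates for the replication genes lay above wild type almost throughout, by a modest amount for most. All 44 were detected at a level that allowed a test, and 43 of 44 had a higher fitted level (42 with upper-quartile scaling, where Gins4 fell just below 0), against 51.5% of all genes tested. The exception was Gins1, a subunit of the GINS complex of the helicase. Their median log2 fold change was 0.50, that is 1.41-fold, where the median of all genes tested was 0.0069 on the log2 scale. None passed an adjusted p of 0.05 over all genes (0 of 44, beside 0.0942% of all genes in either direction and 0.0765% in the higher direction), and the lowest adjusted p values were 0.0923 for Pola1 and 0.0952 for Rrm2. At an unadjusted p under 0.05, 28 of 44 were higher (63.6%, where 5.77% of all genes were higher at that threshold) and 0 of 44 were lower (3.67% of all genes). In 30 of 44 the lowest FTO-overexpressing library stood above the highest wild-type library (68.2%, against 7.96% of all genes), and in 0 of 44 the reverse held (6.9% of all genes). Other tools placed the threshold elsewhere. DESeq2, run on the same counts, called 12 of the 44 as higher (1.98% of all genes), limma-voom called 0 (0.0118% of all genes), and edgeR without its filter on low counts called 11 (0.853% of all genes). The 12 were Cdc6, Mcm2, Mcm3, Mcm5, Mcm6, Mcm7, Pola1, Pole, Rpa2, Rrm2, Chaf1b and Uhrf1, each of them higher in FTO-overexpressing lungs.

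**Figure D1:**
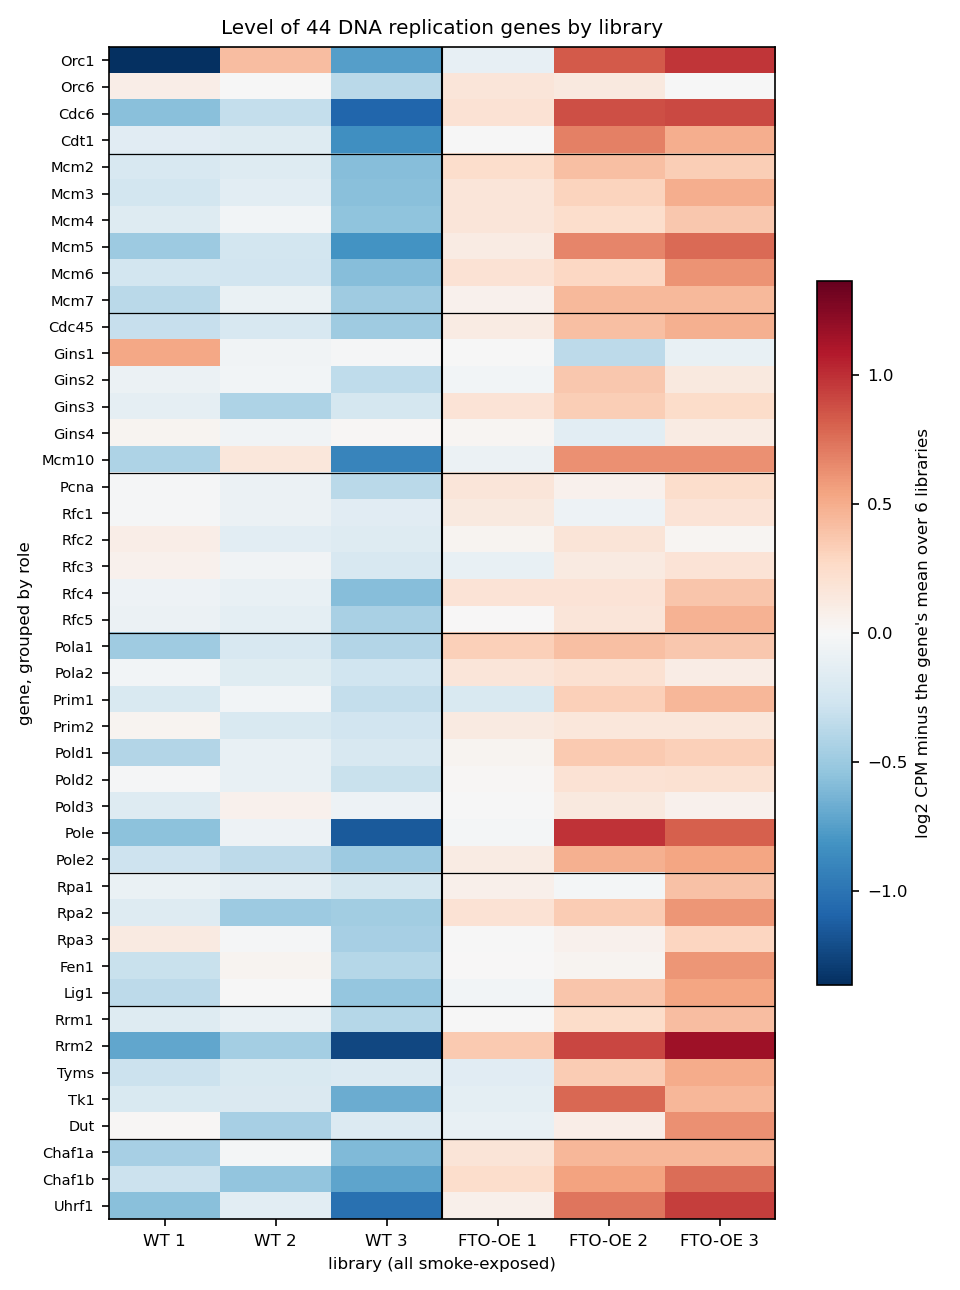
Level of each of the 44 replication genes in each of the 6 libraries. Rows are genes grouped by role, columns are libraries, and colour is log2 CPM minus the gene's mean over the 6 libraries (red higher, blue lower). WT 3 was the lowest library for 34 of 44 genes and FTO-OE 3 the highest for 28 of 44.

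The libraries of a group were not alike. WT 3 was the lowest of all 6 libraries for 34 of the 44 genes. FTO-OE 3 was the highest for 28 genes and FTO-OE 2 for 14, while FTO-OE 1 was the lowest of its own group for 36. Summed over the 44 genes, the level was 723, 737 and 613 CPM in the wild-type libraries and 858, 956 and 1056 CPM in the FTO-overexpressing libraries. The sums did not overlap, and the nearest pair, WT 2 and FTO-OE 1, were closer to each other than FTO-OE 1 was to FTO-OE 3. Single-gene counts ran from 4 (Orc1 in WT 1) to 2216 (Pcna in FTO-OE 3), so precision differed widely between the genes. For 16 of the 44 at least 1 library had a value that was not whole, so part of their reads was estimated.

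**Figure D2:**
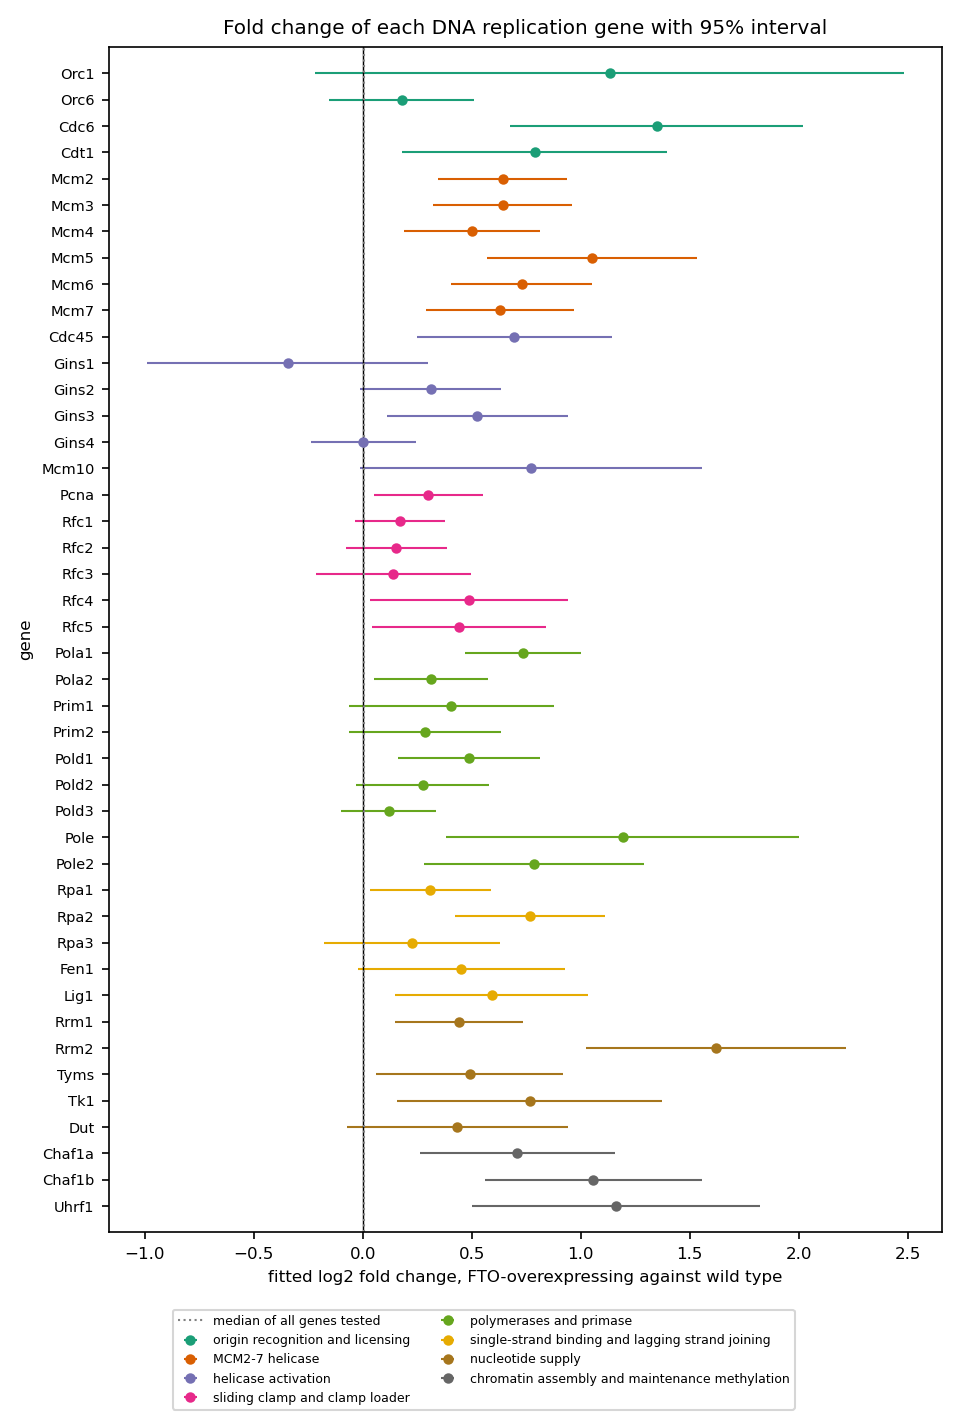
Fitted log2 fold change (FTO-overexpressing against wild-type, 3 libraries each) of each replication gene, coloured by role. The 95% intervals were computed from the F statistic of edgeR's quasi-likelihood test. The dotted line is the median of all genes tested; intervals lie wholly above 0 for 28 of 44 genes. Gins1 has a negative estimate, and Gins4, next to 0, changes sign with upper-quartile scaling.

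The promoters of the replication genes were read for the sites through which cell cycle genes are known to be controlled. Many of these genes are known targets of E2F factors, so a share above that of all promoters can follow from the choice of genes alone. A link between such sites and the difference between genotypes was not tested. RefSeq promoter sequences (assembly GRCm38.p6; the build behind the gene table is not given in the sources used here) were matched to 37 of the 44 genes, with 43 promoters. Both strands of the 250 bases before each start were searched for 4 forms of the E2F site, TTTGGCGC, TTTCCCGC, TTTCGCGC and TTTGCCGC. Such a site stood in 9 of 43 promoters of the replication genes (20.9%) and in 611 of all 32851 promoters of the same length (1.86%). Among other genes of the same pathway, listed further below, 11 of 67 promoters held one (16.4%). In a window that also took in the 50 bases after the start, chosen after the first search, 15 of the 43 held one (34.9%). There the share was 2.26% of all promoters and 22.4% of those of the other pathway genes. The 5 letters of the CCAAT box (ATTGG or its reverse complement), a site of the factor NF-Y, stood in 58.1% against 33.8%, and TTTGAA, the core of the cell cycle homology region that marks mitotic genes, in 11.6% against 16%. Different motifs can overlap each other, and promoters were not matched for base composition. The stretches below belong to genes with some of the larger differences, with the E2F letters in capitals, each given 5′ to 3′ on the strand of its gene.
Cdc6: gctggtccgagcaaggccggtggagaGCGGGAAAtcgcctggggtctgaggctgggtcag
Mcm5: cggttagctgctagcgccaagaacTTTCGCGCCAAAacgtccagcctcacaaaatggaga
Mcm6: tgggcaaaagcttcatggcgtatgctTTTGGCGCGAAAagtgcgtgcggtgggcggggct
Pola1: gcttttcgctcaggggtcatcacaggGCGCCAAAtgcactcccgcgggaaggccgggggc
Uhrf1: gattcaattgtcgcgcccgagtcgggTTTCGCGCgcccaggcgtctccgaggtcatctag
These lie at chr11:98907987-98908046, plus strand (Cdc6), chr8:75109332-75109391, plus strand (Mcm5), chr1:128359782-128359841, minus strand (Mcm6), chrX:93632260-93632319, minus strand (Pola1) and chr17:56304102-56304161, plus strand (Uhrf1), and hold 0 bases of an annotated exon. In the Mcm5 and Mcm6 stretches the capitals span 2 overlapping matches on opposite strands.

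Genes with and without a match overlapped in their fold changes. Orc1, the largest subunit of the origin recognition complex, had a match beside its start, in which 23 of the 30 bases shown are exonic. Rfc3, a clamp loader subunit with a fold change close to 1 (1.103-fold), had one too, and all 30 bases of its stretch are annotated as exonic. Rrm2, which had the largest fold change of the 44, had none of the 4 forms in its window; the capitals in its stretch mark a CCAAT box.
Orc1: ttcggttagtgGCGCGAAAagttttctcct
Rfc3: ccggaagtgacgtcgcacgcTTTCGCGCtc
Rrm2: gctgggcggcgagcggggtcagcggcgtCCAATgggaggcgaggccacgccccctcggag
They lie at chr4:108579416-108579445, plus strand (Orc1), chr5:151651209-151651238, minus strand (Rfc3) and chr12:24708176-24708235, plus strand (Rrm2). The 9 genes with an E2F match had a median log2 fold change of 0.74, ranging from 0.14 to 1.35. Of them, 7 were higher at an unadjusted p under 0.05 (5.77% of all genes). The 28 matched genes without one had a median of 0.49, ranging from 0.12 to 1.62, and 19 of them were higher at that threshold, so the ranges overlapped. Of these 28, 6 held a form in the 50 bases after the start: Cdt1, Mcm3, Pold1, Pold3, Pole2 and Lig1. With that window the median was 0.73 for the 15 genes with a match (12 higher at that threshold) and 0.45 for the 22 without (14 higher). Before the start, 0 of 15 promoters of T cell markers and 1 of 14 of mitosis genes held an E2F form. Of those 14, 12 held a CCAAT box and 6 the cell cycle homology core. With the 50 bases after the start included, the core stood in 10 of those 14 (17.9% of all promoters).

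Licensing factors showed some of the larger and some of the smaller differences. Cdc6 (ENSMUSG00000017499), the ATPase that brings MCM rings to the origin, stood at 2.55, 3.05 and 1.76 CPM in the wild-type libraries and 4.42, 7.11 and 7.24 CPM in the FTO-overexpressing libraries. Its groups did not overlap, FTO-OE 2 and 3 were the 2 highest libraries, and the difference was 2.55-fold (95% interval 1.599 to 4.05, unadjusted p = 0.00182, adjusted p = 0.155). Cdt1 (ENSMUSG00000006585), which escorts the MCM ring to the origin and is destroyed once S phase starts, was measured at 5.53, 5.46 and 3.41 CPM in the wild-type libraries and 6.15, 10.01 and 8.76 CPM in the FTO-overexpressing libraries. The groups lay apart by little, since FTO-OE 1 was just above WT 1 and WT 2, and the difference was 1.73-fold (95% interval 1.13 to 2.63, unadjusted p = 0.0175, adjusted p = 0.378). Orc6, the smallest subunit of the origin recognition complex, was at 16.2, 15.2 and 11.8 CPM in the wild-type libraries and 17.1, 16.7 and 15.2 CPM in the FTO-overexpressing libraries, with overlapping groups and a difference of 1.13-fold (95% interval 0.899 to 1.43, unadjusted p = 0.246, adjusted p = 0.781). Orc1 had the lowest level per kilobase of transcript among the 44 and was at 0.217, 0.998 and 0.385 CPM against 0.661, 1.36 and 1.52 CPM, and its 2.19-fold difference had an interval from 0.8602 to 5.59.

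All 6 genes of the MCM2-7 ring, the motor of the helicase, were higher at an unadjusted p under 0.05 (5.77% of all genes). In 6 of 6 the groups did not overlap (7.96% of all genes in the higher direction). Mcm6 (ENSMUSG00000026355) was at 36.4, 36.1 and 28.8 CPM in the wild-type libraries and 49.7, 52.4 and 65.9 CPM in the FTO-overexpressing libraries, a difference of 1.66-fold (95% interval 1.33 to 2.07, unadjusted p = 0.000884, adjusted p = 0.123). Mcm5 (ENSMUSG00000005410) was at 12.4, 14.7 and 9.96 CPM in the wild-type libraries and 18.95, 27.9 and 29.97 CPM in the FTO-overexpressing libraries. It had the largest fold change of the ring, 2.07-fold (95% interval 1.48 to 2.89, unadjusted p = 0.00113, adjusted p = 0.136). The smallest was that of Mcm4, at 32.4, 35.7 and 25.03 CPM in the wild-type libraries and 41.3, 43.2 and 47.3 CPM in the FTO-overexpressing libraries, or 1.41-fold (95% interval 1.14 to 1.76, unadjusted p = 0.00636, adjusted p = 0.248). Mcm2 (1.56-fold), Mcm3 (1.56-fold) and Mcm7 (1.55-fold) lay between them. WT 3 was the lowest library for each of the 6.

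Since the 6 subunits form 1 ring in equal number, their levels were also compared per kilobase of transcript. On that scale Mcm5 had the lowest level of the ring, 3.65 CPM per kb in wild-type lungs and 7.58 CPM per kb in FTO-overexpressing lungs. Mcm6 had the highest, 11.6 CPM per kb in wild-type lungs and 19.2 CPM per kb in FTO-overexpressing lungs. The added level, that is the difference between the group means per kilobase, was 2.75 for Mcm2, 3.59 for Mcm4, 3.92 for Mcm5, 4.29 for Mcm7, 4.55 for Mcm3 and 7.63 CPM per kb for Mcm6. The added level of Mcm5, the gene with the largest fold change of the ring, was thus above those of Mcm2 and Mcm4 and below those of Mcm7, Mcm3 and Mcm6. These differences between subunits were not tested against each other.

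**Figure D3:**
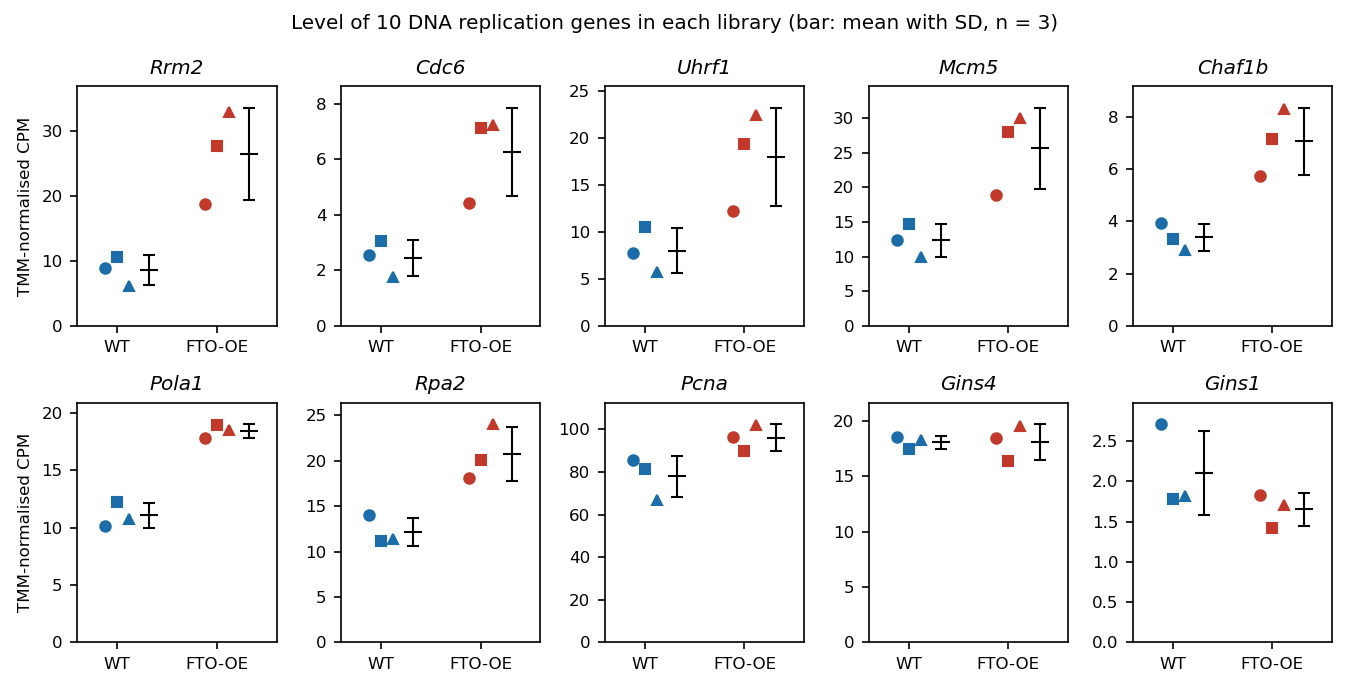
Normalised level in CPM of 10 replication genes, each point 1 library (circle, square and triangle: replicates 1, 2 and 3), with the mean and SD of the 3 libraries of a group. Rrm2, Cdc6, Uhrf1, Mcm5, Chaf1b, Pola1, Rpa2 and Pcna show groups that do not overlap, whereas Gins4 and Gins1 overlap; the 10 were chosen after their values were seen.

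Genes that activate the helicase were divided. Cdc45 (ENSMUSG00000000028), which binds the loaded ring and is limiting for origin firing, was at 3.52, 3.78 and 3.14 CPM in the wild-type libraries and 4.78, 5.91 and 6.22 CPM in the FTO-overexpressing libraries. The groups did not overlap, and the difference was 1.62-fold (95% interval 1.19 to 2.21, unadjusted p = 0.00738, adjusted p = 0.255). The 4 GINS genes encode the subunits of 1 tetramer, yet their estimates ranged from below to above 1. Gins3 was at 3.96, 3.204 and 3.63 CPM in the wild-type libraries and 4.93, 5.46 and 5.16 CPM in the FTO-overexpressing libraries, without overlap, a difference of 1.44-fold (95% interval 1.08 to 1.92, unadjusted p = 0.0197, adjusted p = 0.399). Gins4 stood at 18.5, 17.4 and 18.3 CPM in the wild-type libraries and 18.4, 16.4 and 19.5 CPM in the FTO-overexpressing libraries, a difference of 1.002-fold (95% interval 0.847 to 1.19, unadjusted p = 0.976, adjusted p = 0.997) with FTO-OE 2 the lowest of all libraries. Gins1 was at 2.71, 1.79 and 1.82 CPM in the wild-type libraries and 1.83, 1.42 and 1.71 CPM in the FTO-overexpressing libraries, highest in WT 1, with a fold change of 0.787 and an interval from 0.504 to 1.23. Gins2 (1.24-fold, 95% interval 0.991 to 1.55) and Mcm10 (1.71-fold, 95% interval 0.9904 to 2.94), a scaffold of the active helicase, did not reach an unadjusted p of 0.05. Gins1 and Mcm10 are among the genes with the fewest counts, and the intervals of the 4 GINS genes overlap.

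The sliding clamp and its loader had the lowest median log2 fold change of the 8 role groups, 0.24. Pcna (ENSMUSG00000027342), the ring that tethers polymerases to DNA and also serves repair, had the highest level per kilobase among the 44 and was at 85.4, 81.6 and 67.1 CPM in the wild-type libraries and 96.5, 89.7 and 102 CPM in the FTO-overexpressing libraries. The groups did not overlap, and the difference was 1.23-fold (95% interval 1.04 to 1.47, unadjusted p = 0.0241, adjusted p = 0.423). Of the 5 subunits of the clamp loader, Rfc5 and Rfc4 were higher at an unadjusted p under 0.05. Rfc5 was at 10.5, 10.1 and 8.14 CPM in the wild-type libraries and 11.1, 12.4 and 15.4 CPM in the FTO-overexpressing libraries, or 1.36-fold (95% interval 1.03 to 1.79, unadjusted p = 0.0336, adjusted p = 0.4705), and Rfc4 differed by 1.404-fold. Rfc3 was at 8.78, 8.19 and 7.26 CPM in the wild-type libraries and 7.88, 9.21 and 9.64 CPM in the FTO-overexpressing libraries, with overlapping groups, and differed by 1.103-fold (95% interval 0.862 to 1.41, unadjusted p = 0.383, adjusted p = 0.855). Rfc1 (1.12-fold) and Rfc2 (1.11-fold) also overlapped between groups.

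Each catalytic polymerase subunit had a larger estimate than its partner subunits, a difference that was not tested. Pola1 (ENSMUSG00000006678), the catalytic subunit of the polymerase that starts each new strand, was at 10.2, 12.2 and 10.8 CPM in the wild-type libraries and 17.8, 18.99 and 18.5 CPM in the FTO-overexpressing libraries. The groups did not overlap and each was narrow, and the difference, with the lowest adjusted p of the 44 genes, was 1.67-fold (95% interval 1.38 to 2.002, unadjusted p = 0.0002502, adjusted p = 0.0923). Pole2, an accessory subunit of the leading strand polymerase, was at 2.49, 2.36 and 2.15 CPM in the wild-type libraries and 3.303, 4.32 and 4.47 CPM in the FTO-overexpressing libraries, a difference of 1.73-fold (95% interval 1.22 to 2.45, unadjusted p = 0.00732, adjusted p = 0.255). Its catalytic partner Pole had a larger estimate with a wider interval (2.29-fold, 95% interval 1.304 to 4.01), with FTO-OE 1 close to WT 2. Pold1, the catalytic subunit of the lagging strand polymerase, differed by 1.401-fold, Pold2 by 1.21-fold and Pold3 least, at 24.2, 28.5 and 26.1 CPM in the wild-type libraries and 27.2, 30.02 and 28.4 CPM in the FTO-overexpressing libraries and 1.09-fold (95% interval 0.933 to 1.26, unadjusted p = 0.242, adjusted p = 0.778). The other subunit of the starting polymerase, Pola2 (1.24-fold), was higher at an unadjusted p under 0.05. The primase genes Prim1 (1.33-fold) and Prim2 (1.22-fold) were not. In all, 7 of the 9 genes had groups that did not overlap (7.96% of all genes in the higher direction).

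Single-strand binding and the joining of lagging strand fragments gave mixed results. Rpa2 (ENSMUSG00000028884), the middle subunit of the complex that coats single-stranded DNA, was at 13.98, 11.2 and 11.4 CPM in the wild-type libraries and 18.1, 20.1 and 24.02 CPM in the FTO-overexpressing libraries, without overlap. It differed by 1.703-fold (95% interval 1.34 to 2.16, unadjusted p = 0.000983, adjusted p = 0.129). Lig1, the ligase that seals lagging strand fragments, was at 13.01, 16.7 and 11.6 CPM in the wild-type libraries and 16.3, 21.6 and 24.3 CPM in the FTO-overexpressing libraries. FTO-OE 1 was below WT 2, and the difference was 1.51-fold (95% interval 1.11 to 2.05, unadjusted p = 0.0153, adjusted p = 0.355). Rpa3, the smallest subunit of the coating complex, was at 14.2, 12.9 and 9.52 CPM in the wild-type libraries and 13.1, 13.6 and 16.1 CPM in the FTO-overexpressing libraries, with overlap and a difference of 1.17-fold (95% interval 0.883 to 1.55, unadjusted p = 0.234, adjusted p = 0.774). The large subunit Rpa1 (1.24-fold, 95% interval 1.02 to 1.502) and the flap nuclease Fen1 (1.37-fold, 95% interval 0.986 to 1.901) lay between these. Without FTO-OE 3 the median log2 fold change of these 5 genes was 0.23 in place of 0.45.

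Nucleotide supply held the gene with the largest fold change. Rrm2 (ENSMUSG00000020649) is the subunit of ribonucleotide reductase whose protein is made in S phase and degraded in mitosis. It stood at 8.99, 10.7 and 6.16 CPM in the wild-type libraries and 18.9, 27.7 and 32.9 CPM in the FTO-overexpressing libraries. Every FTO-overexpressing library was above every wild-type library, and the difference was 3.08-fold (95% interval 2.03 to 4.66, unadjusted p = 0.000286, adjusted p = 0.0952). It passed an adjusted p of 0.05 when FTO-OE 1 was left out (0.0498). Its partner Rrm1, the large subunit, was at 40.97, 43.2 and 35.3 CPM in the wild-type libraries and 46.03, 54.8 and 61.7 CPM in the FTO-overexpressing libraries, or 1.36-fold (95% interval 1.11 to 1.67, unadjusted p = 0.00859, adjusted p = 0.274). Both form 1 enzyme, and the intervals of their fold changes do not overlap, although the difference between them was not tested. Tk1, the thymidine kinase of S phase, differed by 1.7-fold and Tyms, thymidylate synthase, by 1.41-fold. Dut, which destroys dUTP, was at 12.5, 8.98 and 10.8 CPM in the wild-type libraries and 11.4, 13.1 and 19.04 CPM in the FTO-overexpressing libraries, with overlapping groups and a difference of 1.35-fold (95% interval 0.951 to 1.92, unadjusted p = 0.0834, adjusted p = 0.615).

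All 3 genes that restore chromatin and DNA methylation behind the fork were higher at an unadjusted p under 0.05 (5.77% of all genes). Their groups did not overlap (7.96% of all genes in the higher direction). Chaf1b (ENSMUSG00000022945), a subunit of the chaperone that deposits histones on new DNA, was at 3.96, 3.31 and 2.92 CPM in the wild-type libraries and 5.74, 7.16 and 8.3 CPM in the FTO-overexpressing libraries, or 2.08-fold (95% interval 1.48 to 2.94, unadjusted p = 0.00129, adjusted p = 0.137). Uhrf1 (ENSMUSG00000001228), which reads hemimethylated DNA and recruits the maintenance methyltransferase, was at 7.803, 10.6 and 5.72 CPM in the wild-type libraries and 12.2, 19.3 and 22.4 CPM in the FTO-overexpressing libraries. That was a difference of 2.24-fold (95% interval 1.42 to 3.54, unadjusted p = 0.00386, adjusted p = 0.2102). Chaf1a, the large chaperone subunit, was at 5.74, 7.72 and 5.17 CPM in the wild-type libraries and 8.89, 10.8 and 10.8 CPM in the FTO-overexpressing libraries, a difference of 1.63-fold (95% interval 1.198 to 2.23, unadjusted p = 0.00678, adjusted p = 0.2504). Their median log2 fold change, 1.06, was the highest of the 8 role groups.

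Across the 44 genes, those with a lower wild-type level per kilobase tended to have the larger fold change (Spearman's rho -0.61 across genes, which are not independent replicates; both axes use the same wild-type libraries). The 22 genes below the median wild-type level of 4.25 CPM per kb had a median log2 fold change of 0.75, and 17 of them were higher at an unadjusted p under 0.05. Of the 22 at or above it, the median was 0.36 and 11 were higher at that threshold (5.77% of all genes). Genes with a log2 fold change above 1 numbered 7: Orc1, Cdc6, Mcm5, Pole, Rrm2, Chaf1b and Uhrf1. Another 15 lay between 0.5 and 1, and 21 between 0 and 0.5. The 7 highest wild-type levels per kilobase belonged to Pcna, Rpa3, Gins4, Rpa1, Mcm6, Orc6 and Rfc1, of which 1, Mcm6, had a log2 fold change above 0.5.

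**Figure D4:**
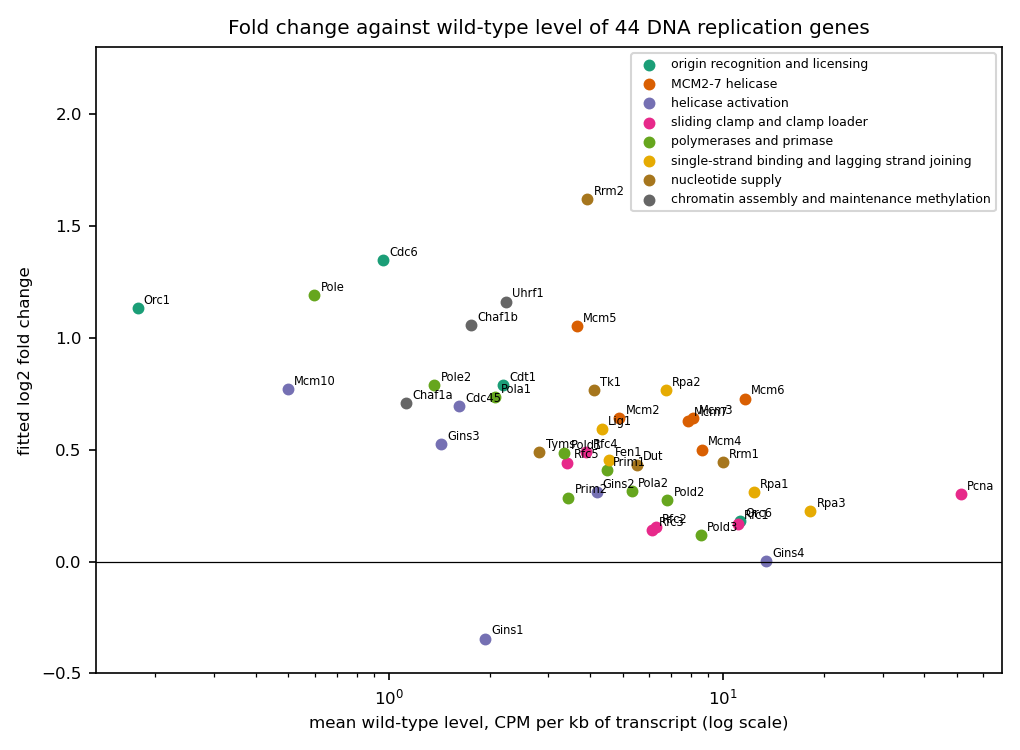
Fitted log2 fold change of each replication gene against its mean wild-type level in CPM per kb of transcript (log axis), coloured by role. Of the genes at the left, Orc1, Pole, Cdc6, Chaf1b and Uhrf1 lie above 1, whereas Mcm10 (0.77), Chaf1a (0.71), Pole2 (0.79), Gins3 (0.53), Cdc45 (0.70), Gins1 (-0.34), Pola1 (0.74) and Cdt1 (0.79) do not; Rrm2 (1.62) and Mcm5 (1.05) lie above 1 further right, and Pcna at the far right lies at 0.30.

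The neighbours of these genes in the same pathway were examined with 5 further lists holding 65 other genes. At an unadjusted p under 0.05, 19 of the 65 were higher (29.2%, against 5.77% of all genes) and 1 was lower (3.67% of all genes). A higher fitted level was found in 58, beside 51.5% of all genes. Their median log2 fold change was 0.23, about that of the clamp and its loader. In the higher direction 22 of 65 (33.8%, against 7.96% of all genes) did not overlap between groups. In edgeR 0 of 65 passed an adjusted p of 0.05, against 6 in DESeq2 (1.98% of all genes were higher there) and 0 in limma-voom. In edgeR the lowest was 0.166. Below, genes counted as higher in single lists are those past the unadjusted threshold. Among origin factors 3 of 14 were higher: Topbp1, which activates firing (1.27-fold), Ticrr, its partner in firing (2.51-fold), and Dbf4, the activator of the kinase that starts firing (1.42-fold, named after its values were seen). Rif1, which restrains firing, was at 1.004-fold. Of 21 fork and checkpoint genes 7 were higher, led by Clspn (Claspin), an adaptor of the replication checkpoint, at 3.901, 2.84 and 2.04 CPM in the wild-type libraries and 5.18, 12.7 and 10.01 CPM in the FTO-overexpressing libraries (3.17-fold, 95% interval 1.74 to 5.77). Pclaf, a small protein that binds the clamp, was at 7.53, 9.19 and 4.29 CPM in the wild-type libraries and 14.1, 17.1 and 35.7 CPM in the FTO-overexpressing libraries (3.19-fold, 95% interval 1.66 to 6.1), with FTO-OE 3 far above the others. Pole3, an accessory polymerase subunit, was at 1.01-fold.

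Chromatin genes outside the 44 gave 2 of 10 higher at an unadjusted p under 0.05 (5.77% of all genes). They were the histone chaperone Asf1b (2.15-fold) and the maintenance methyltransferase Dnmt1 (1.32-fold). Supt16 was at 1.06-fold, and 9 of the 10 had a higher fitted level. In nucleotide supply 2 of 10 were higher at that threshold, the salvage kinase Dck (1.51-fold) and Samhd1 (1.31-fold), which destroys deoxynucleotides. The fitted level was higher in 10 of these 10. Rrm2b, the ribonucleotide reductase subunit that p53 induces outside S phase, was at 62.7, 55.05 and 57.4 CPM in the wild-type libraries and 63.7, 56.8 and 57.8 CPM in the FTO-overexpressing libraries. It thus differed by 1.02-fold, 95% interval 0.889 to 1.17, an interval that does not overlap that of Rrm2. The E2F family itself was divided. Among its 10 genes 7 had a higher fitted level and 3 a lower one. At an unadjusted p under 0.05, 5 were higher (5.77% of all genes) and 1 was lower (3.67% of all genes). Tfdp1, a dimer partner, was at 36.3, 42.9 and 40.5 CPM in the wild-type libraries and 49.8, 59.1 and 53.7 CPM in the FTO-overexpressing libraries (1.36-fold, 95% interval 1.16 to 1.59). E2f8, a repressor that accumulates in S phase, was at 3.197, 4.04 and 3.36 CPM in the wild-type libraries and 5.03, 8.24 and 9.96 CPM in the FTO-overexpressing libraries (2.19-fold, 95% interval 1.41 to 3.398). E2f1, an activator, was at 9.32, 7.98 and 8.53 CPM in the wild-type libraries and 8.54, 9.89 and 7.61 CPM in the FTO-overexpressing libraries, with overlapping groups (1.01-fold, 95% interval 0.784 to 1.29). The other higher genes were E2f2 (1.23-fold), E2f3 (1.36-fold) and E2f7 (2.41-fold), and the lower gene was Tfdp2, another dimer partner (0.848-fold, 95% interval 0.751 to 0.958); these 4 are named after their values were seen.

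The level of the replication genes in each library was set beside that of T cell markers. Each list was summarised as the mean over its genes of log2 CPM, centred on each gene's mean over the 6 libraries. For the replication genes this level was -0.22, -0.14 and -0.48 in the wild-type libraries and 0.07, 0.34 and 0.43 in the FTO-overexpressing libraries. For 20 T cell markers it was -0.66, -0.79 and -1.13 against 0.38, 0.72 and 1.48. Both lists were lowest in WT 3 and highest in FTO-OE 3, and in the FTO-overexpressing group both were lowest in FTO-OE 1. The T cell markers were further apart: their summed level was 213, 196 and 153 CPM in the wild-type libraries and 448, 580.2 and 938 CPM in the FTO-overexpressing libraries. With 2 groups that stand apart and 3 libraries in each, no correlation over the 6 libraries is given.

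T cell markers were higher at an unadjusted p under 0.05 in 20 of 20 cases (5.77% of all genes), with a median log2 fold change of 1.70. Of these 3 passed an adjusted p of 0.05 in edgeR (20 in DESeq2, 0 in limma-voom), among them Cd8a, the co-receptor of cytotoxic T cells, which rose 7.03-fold (adjusted p = 0.02999), and Lck, the kinase of the T cell receptor, which rose 4.89-fold (adjusted p = 0.02999). Among 14 cytotoxic lymphocyte markers 13 were higher at the unadjusted threshold and 6 passed the adjusted one (13 in DESeq2, 1 in limma-voom), with a median log2 fold change of 3.11. Their level was -1.02, -1.75 and -1.49 in the wild-type libraries and 0.88, 1.35 and 2.03 in the FTO-overexpressing libraries. Without WT 2, WT 3 or FTO-OE 2, Fto was the 1 gene of all tested that passed, so these calls were lost there. Inside the wild-type group the order differed: cytotoxic markers were lowest in WT 2, whereas the replication genes were lowest in WT 3.

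Genes of mitosis put the 6 libraries in the same order as the replication genes, from WT 3 as the lowest through WT 1, WT 2, FTO-OE 1 and FTO-OE 2 to FTO-OE 3, whereas T cell markers put WT 1 above WT 2. All 18 were higher at an unadjusted p under 0.05 (5.77% of all genes), and 17 of 18 did so without overlap (7.96% of all genes). In edgeR 0 of 18 passed the adjusted threshold (17 in DESeq2, 0 in limma-voom). The median log2 fold change of the mitosis genes was 1.35. Their level was -0.65, -0.30 and -0.92 in the wild-type libraries and 0.16, 0.73 and 0.98 in the FTO-overexpressing libraries. For T cell markers WT 1 was the highest wild-type library in 15 of 20 genes, for mitosis genes WT 2 in 15 of 18, and the replication genes were split between WT 1 (21 of 44) and WT 2 (22 of 44). Kif20a, a kinesin of cell division, was at 3.63, 5.46 and 4.4 CPM in the wild-type libraries and 9.4, 13.8 and 13.8 CPM in the FTO-overexpressing libraries, a difference of 2.74-fold (95% interval 1.91 to 3.93, unadjusted p = 0.000236, adjusted p = 0.0923).

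**Figure D5:**
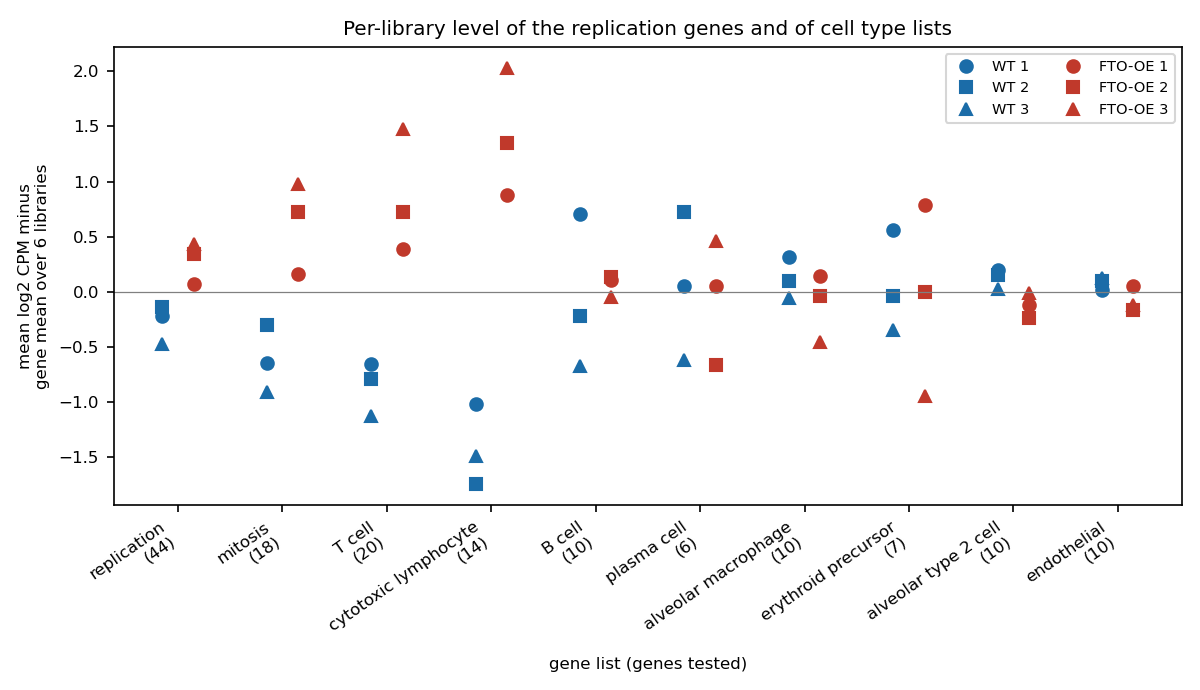
Mean level of each gene list in each library, as log2 CPM minus the gene's mean over 6 libraries (number of genes tested below each list; circle, square and triangle mark replicates 1, 2 and 3). Replication, mitosis, T cell and cytotoxic lists lie higher in each FTO-overexpressing library than in any wild-type library. The alveolar type 2 list lies lower in each, by little between WT 3 (0.02) and FTO-OE 3 (-0.01). B cell, plasma cell, alveolar macrophage, erythroid and endothelial lists overlap between groups.

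Lists of other cells that can divide or that make up the lung did not share this order. For 10 B cell markers the level was 0.70, -0.22 and -0.67 in the wild-type libraries and 0.10, 0.13 and -0.04 in the FTO-overexpressing libraries, highest in WT 1 for 10 of 10 genes, and 0 of 10 reached an unadjusted p of 0.05. In the germinal centre (3 of 5 tested), plasma cell (6 of 6) and erythroid (7 of 8) lists 0 genes did so. Summed erythroid precursor markers ranged from 2177 CPM in FTO-OE 3, where the replication genes were highest, to 19091 CPM in FTO-OE 1. Alveolar macrophage markers had a median log2 fold change of -0.27, with 1 of 10, Car4, lower at the unadjusted threshold (3.67% of all genes). Markers of alveolar type 2 cells were lower in 10 of 10 estimates, with a median log2 fold change of -0.26. Of the 10, 4 were lower at an unadjusted p under 0.05 (3.67% of all genes) and 6 without overlap (6.9% of all genes). Of these 10, 0 passed an adjusted p of 0.05 in edgeR and in limma-voom, and 3 did in DESeq2. Endothelial markers had a median of -0.12, with 2 of 10 lower at the unadjusted threshold (3.67% of all genes). The part of these cell types, of T cells and of cytotoxic lymphocytes in the result for the replication genes was not tested.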

How the data were processed

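Total RNA from lung was made into stranded, poly(A)-selected libraries, per the labels' protocols. The submitters' processing notes name fastp, HISAT2 and StringTie; their versions, the genome build, the annotation and the counting program are not given in these sources. The deposited table holds expected counts per gene, estimated and not always whole (between 9.66% and 10.3% of a library's rows were not whole), not scaled to depth; they were rounded before testing. 525 rows without a symbol held 0.119% to 0.143% of a library's counts. Whether counting used the strand is not given, so reads of overlapping genes may not be separated. In R 4.3.3, edgeR 4.0.16 (filterByExpr, TMM scaling, quasi-likelihood F-test, group as the only term) was fitted to the whole table, with Benjamini-Hochberg adjustment over 16989 genes. CPM values are TMM-normalised, and levels per kilobase use the principal transcript's length in GENCODE M21. Intervals are 95% intervals of the fitted group difference, computed from the fold change and the F statistic of the test. Within groups, libraries differed by more than sampling noise (chi-square divided by its degrees of freedom, 27.8 to 48.6), so none was taken as a duplicate. Across groups, WT 1 with FTO-OE 1 (20.7) and WT 3 with FTO-OE 2 (26.97) lay closer than any pair within a group. Alternatives were other scalings, no filter and a mean of at least 50 counts, limma-voom (limma 3.58.1), DESeq2 1.42.0, a replicate block and each library left out; the procedure was tested on simulated data. In each of 8 role groups the 2 genes with the smallest p and the 1 nearest to no change are given per library. The 44 genes and all lists were chosen with earlier results of these data known.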

Additional observations from a re-analysis of the deposited data

How the results depend on the processing

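Over the alternatives, the number of replication genes higher at an unadjusted p under 0.05 ranged from 21 (without WT 3) to 32 (no filter), and the number without overlap between groups from 29 to 37, the latter with 5 libraries, where non-overlap is commoner among all genes too (11.5% to 15.4%). Their median log2 fold change ranged from 0.44 (without FTO-OE 3) to 0.58 (without FTO-OE 1). Between 42 and 43 of 44 estimates stayed above 0, and under the stricter filter 42 of 42, since Orc1 and Gins1 were not tested there. Replication genes past an adjusted p of 0.05 numbered 11 with no filter, 12 in DESeq2 and 0 to 1 with a library left out, the 1 being Rrm2 without FTO-OE 1; the cause was not tested. Promoters with an E2F form numbered 15 in place of 9 with the window extended to 50 bases after the start, which was chosen after seeing the data. Scaling by library totals alone moved the median of all genes to 0.040 on the log2 scale.

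Same-numbered libraries did not deviate together (correlations of 0.11, -0.31 and -0.31), so the numbers were not taken as pairs. Among libraries with different numbers the highest correlation was 0.43, for WT 3 with FTO-OE 2. With the replicate block 0 replication genes passed the adjusted threshold, 25 were higher at the unadjusted one and the median was 0.51; over all genes 2 passed in place of 16.

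Estimates close to 0 changed sign. Gins4 was at -0.00041 with upper-quartile scaling and -0.00044 with the replicate block, and E2f1 at -0.0044 in limma-voom. With a library left out, Gins4 ranged from -0.055 (without FTO-OE 3) to 0.071, Rif1 from -0.030 (without WT 3) to 0.037, Pole3 from -0.048 (without FTO-OE 1) to 0.069, Rrm2b from -0.027 (without FTO-OE 1) to 0.086 and E2f1 from -0.092 (without FTO-OE 2) to 0.096. The cause was not tested. Depth limits the genes with few counts, such as Orc1, with 4 counts in WT 1.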
